A study of Rattus with 27 samples.

Results

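White blood cells of vehicle-labelled rats were compared with white blood cells of model-labelled rats at 6 h after middle cerebral artery occlusion (MCAO), a rat model of stroke in which blood flow to part of the brain is stopped. The arrays were chosen by their titles alone: vehicle 2, 4 and 5 and model 1, 2 and 3 of the blood samples, 6 of the 27 arrays in the series. All rats were Sprague Dawley, each gave 1 array per tissue, and both of these groups had undergone MCAO. The 3 sham arrays (3, 4 and 5), from rats that were anaesthetised and had the vessel exposed without occlusion, served as the common baseline. Age, sex and the way the white cells were separated are not given. The treatment protocol lists vehicle controls and rats dosed with the herbal formula YJ at 25 mg/kg, while the titles name vehicle and model, and the labels do not say which of the MCAO rats had YJ. The difference below is therefore one between 2 sets of labels, and neither YJ nor its vehicle can be credited with it.

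The separated cells are a mixture, and a bulk array averages over it. Rat blood holds many lymphocytes, fewer neutrophils and monocytes, and red cells with their youngest stage, the reticulocyte, which has lost its nucleus but still carries RNA for haemoglobin, haem synthesis and the membrane skeleton. Neutrophils make their granule proteins in the bone marrow in a fixed order: primary granule enzymes such as myeloperoxidase first, then the secondary granule proteins Ngp, Lcn2, Camp and Ltf, and mature blood neutrophils carry little RNA for most of them. In such a sample, more cells of a type and more RNA per cell cannot be told apart.

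Per-array medians lay between 4.96 and 5.23 on the log2 scale in the 9 white blood cell arrays, and over all genes r was 0.986 to 0.995 between arrays of the same group. Between vehicle and model arrays r was 0.985 to 0.992, so the ranges overlapped. Vehicle 5 correlated more closely with model 1 (0.9911) and model 2 (0.9919) than with vehicle 2 (0.9897) or vehicle 4 (0.9900). The 26 measured T cell genes averaged 8.39 in white blood cells, 7.20 in spleen and 4.68 in brain (log2 level, 9 arrays each), and the 13 platelet genes 11.2, 8.63 and 5.35, so the blood label matched its lymphocyte markers and the preparation carried platelet RNA. The 60 measured erythroid genes averaged 7.78 in white blood cells and 8.37 in spleen. Red cell transcripts were thus present in the white cell preparation of every group. Dates and batches are not given, so batch and group cannot be told apart. With 3 arrays a group, precision is limited for every value. Levels are log2 intensities, and differences are vehicle minus model in log2 units, ± the standard error (SE) of the limma fit. The words rose, fell and called are kept for genes whose p, adjusted over 14506 genes, was below 0.05.

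Of the 14506 genes, 183 rose (1.26%) and 43 fell (0.296%) in vehicle-labelled white blood cells, 226 in all (1.56%). At an unadjusted p under 0.05 there were 1576. The 3 vehicle and the 3 model arrays did not overlap for any of the 226 called genes, against 18.9% of all genes. The rises were larger than the falls: the median called rise was 1.13 and the median called fall -0.59, and 108 rises but 1 fall reached 2-fold. The median difference over all genes was -0.02. Of the 226, 47 belonged to at least 1 of 24 gene lists of cell types and processes, and 28 of those 47 were erythroid. Vehicle 5 was the lowest of the 3 vehicle arrays for 160 of the 183 genes that rose, vehicle 2 for 12 and vehicle 4 for 11. The size of the rises thus varied within the vehicle group in a shared direction. Without vehicle 5 the number of called genes was 273, without vehicle 2 or vehicle 4 it was 112 or 113, and without model 1, 2 or 3 it was 108, 149 or 127.

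**Figure D1:**
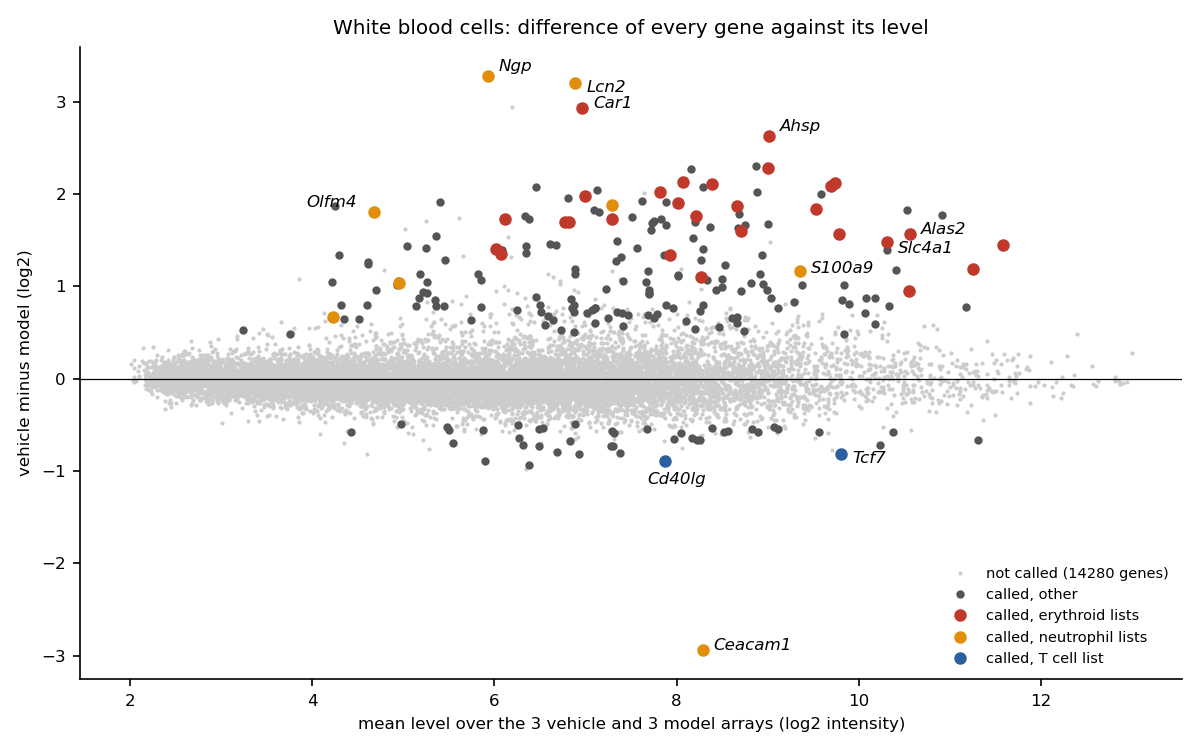
Difference of each of the 14506 genes, vehicle minus model in white blood cells (log2, vertical axis), against its mean level over the 6 arrays (log2 intensity, horizontal axis). Grey points did not pass the limma threshold, dark points did, and coloured points are called genes of the erythroid (red), neutrophil (orange) and T cell (blue) lists; rises reach 3.28 and the single fall beyond 1 is Ceacam1 at -2.94.

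The largest rises were those of 2 neutrophil granule genes. Ngp, the neutrophilic granule protein (probe 10913664), was at 7.89, 7.04 and 7.78 in vehicle 2, 4 and 5, against 4.20, 3.99 and 4.67 in model 1, 2 and 3 and 4.25, 3.60 and 3.93 in sham. Lcn2, lipocalin 2, a secondary granule protein that binds bacterial iron carriers (probe 10844331), was at 8.80, 8.06 and 8.61 in vehicle, 5.21, 4.92 and 5.72 in model and 5.31, 4.76 and 5.04 in sham samples. For both genes the vehicle arrays lay more than 2 log2 units above every other array, and the model arrays lay among or next to the sham arrays. The differences were 3.28 ± 0.23 for Ngp and 3.21 ± 0.22 for Lcn2 (9.74-fold and 9.23-fold, adjusted p = 1.84e-05 each). These 2 genes and Cd52 were also called in every alternative setting, including the one with replicate number as a block.

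Other secondary and tertiary granule and cytosol genes were uneven. Of 16 measured, 6 rose and 1 fell, with a median difference of 1.07 (1.26% and 0.296% of all genes rose and fell). The fall was that of Ceacam1, described further on. Olfm4, olfactomedin 4, a granule protein of a subset of neutrophils, was at 6.09, 5.16 and 5.51 in vehicle against 3.59, 3.39 and 4.36 in model samples (1.81 ± 0.24, adjusted p = 0.00129). Pglyrp1, a peptidoglycan-binding granule protein, was at 8.23, 8.92 and 7.54 in vehicle and 6.17, 5.83 and 7.05 in model samples (1.88 ± 0.34, adjusted p = 0.0124). Vehicle 5 and model 3 lay closest to each other for this gene, and its call was lost without model 1, model 2, vehicle 2 or vehicle 4, with differences of 1.54 to 1.88. S100a9, a subunit of calprotectin in the neutrophil cytosol, rose by 1.16 ± 0.21 (adjusted p = 0.0121, not called without model 1) and Camp, the cathelicidin precursor, by 1.04 ± 0.14 (adjusted p = 0.00135). The calprotectin partner S100a8 differed by 0.28 ± 0.23 (adjusted p = 0.78), with vehicle arrays from 7.76 to 8.80 and model arrays from 7.91 to 8.26. Ltf, lactoferrin, the classic secondary granule marker, was at 4.21, 4.27 and 4.39 in vehicle and 4.25, 4.20 and 4.31 in model samples, a difference of 0.04 ± 0.13 (adjusted p = 0.97). The Ltf probe was dim in every tissue, with group means of 4.06 to 4.14 in spleen and 3.95 to 4.05 in brain. A change of Ltf could therefore have gone unseen. Mmp8, the neutrophil collagenase, varied widely within the groups. It read 8.51, 9.90 and 7.52 in vehicle, 6.00, 6.05 and 7.84 in model and 6.57, 6.19 and 6.08 in sham samples, and model 3 lay above vehicle 5. Its difference of 2.01 ± 0.52 missed the threshold (adjusted p = 0.091) and passed it without model 3 (2.62, adjusted p = 0.0127) or without vehicle 5 (2.58, adjusted p = 0.022).

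The primary granule list and the neutrophil receptor and oxidase list gave 1 call in all, while 1.26% of all genes rose and 0.296% fell. None of the 12 measured primary granule genes was called (limma, 1 at an unadjusted p under 0.05), and their median difference was 0.11. These 12 genes averaged 4.64 in white blood cells, against 6.37 in spleen and 4.13 in brain. They were thus dim in white blood cells, where a change could have gone unseen. Mpo, myeloperoxidase, read 4.34, 4.32 and 4.33 in vehicle against 4.46, 4.18 and 4.60 in model samples, and Elane, neutrophil elastase, differed by 0.09 ± 0.12 (adjusted p = 0.89). Of 20 neutrophil receptor and oxidase genes 1 rose, the 5-lipoxygenase gene Alox5 (0.67 ± 0.14, adjusted p = 0.0321). Alox5 was dim, at 4.69, 4.74 and 4.26 in vehicle and 3.90, 3.85 and 3.92 in model samples. It was no longer called without vehicle 2, vehicle 4 or any single model array. Csf3r, the G-CSF receptor of mature neutrophils, was at 9.33, 9.69 and 9.75 in vehicle, 9.71, 9.80 and 9.61 in model and 8.80, 8.85 and 8.96 in sham samples. Both MCAO groups thus lay above sham for Csf3r, with a difference between them of -0.12 ± 0.13 (adjusted p = 0.85). Cxcr2, the receptor for neutrophil chemokines, differed by 0.22 ± 0.29 (adjusted p = 0.89).

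**Figure D2:**
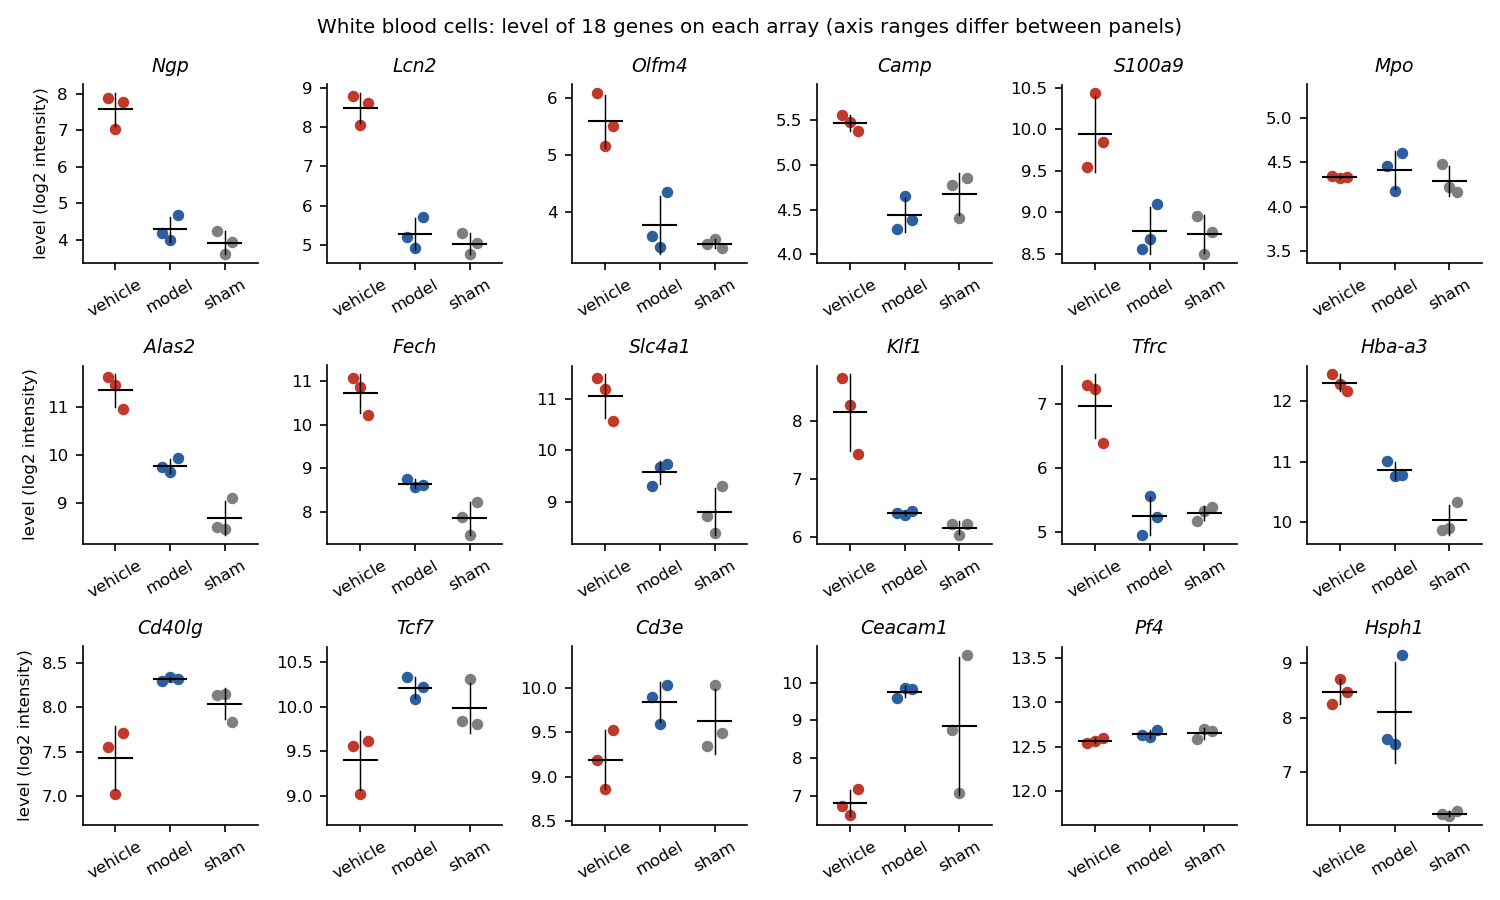
Level of 18 genes on each white blood cell array (log2 intensity), vehicle at left, model in the middle and sham at right, with the mean (bar) and SD (line) of 3 arrays. Ngp, Lcn2 and Olfm4 are high in vehicle arrays alone, the erythroid genes of the middle row are highest in vehicle, with Alas2, Fech, Klf1 and Hba-a3 also higher in every model than in every sham array, and Pf4 lies between 12.54 and 12.70 throughout.

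Erythroid genes made up the largest named group. Over 4 lists, 28 of 60 measured genes rose and 0 fell (46.7% against 1.26% of all genes), 57 of 60 had a positive difference, and the median was 0.85. The vehicle and model arrays did not overlap for 44 of the 60, against 18.9% of all genes. The mean level of the 60 genes was 8.77, 8.66 and 8.13 in vehicle, 7.45, 7.48 and 7.54 in model and 7.25, 7.18 and 7.58 in sham samples. All 3 vehicle arrays lay above the others, vehicle 5 least so, while the model arrays lay within the sham range.

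In haem synthesis and iron uptake, 5 of 15 measured genes rose, with a median of 0.50: 3 enzymes of the pathway and 2 genes of its iron supply. Alas2, the erythroid enzyme that starts haem synthesis (probe 10932912), was at 11.62, 11.47 and 10.95 in vehicle, 9.74, 9.65 and 9.94 in model and 8.50, 8.45 and 9.10 in sham samples. Fech, ferrochelatase, which inserts iron in the last step (probe 10804875), was at 11.09, 10.88 and 10.23 in vehicle, 8.76, 8.57 and 8.62 in model and 7.89, 7.46 and 8.22 in sham samples. For both genes the 3 groups formed separate steps with no overlap. Alas2 differed by 1.57 ± 0.19 between vehicle and model (2.97-fold, adjusted p = 0.000757) and Fech by 2.08 ± 0.21 (4.24-fold, adjusted p = 0.000352). Tfrc, the transferrin receptor that brings iron into red cell precursors, read 7.30, 7.24 and 6.39 in vehicle, 4.95, 5.56 and 5.23 in model and 5.17, 5.32 and 5.39 in sham samples, so here the model arrays spanned the sham level (1.73 ± 0.22, adjusted p = 0.000794). The mitochondrial iron importer gene Slc25a37 (mitoferrin 1) rose by 1.76 ± 0.23 and Urod, a mid-pathway decarboxylase, by 1.60 ± 0.19. The other enzymes differed less: Alad by 0.50, Uros by 0.48, Ppox by 0.32 and Cpox by 0.30, none of them called (adjusted p from 0.25 to 0.43). Slc25a38, the mitochondrial glycine importer of the pathway, differed by 0.39 (adjusted p = 0.44).

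Among 7 globin and globin chaperone genes, 2 rose and the median was 0.43. Ahsp, which holds free alpha-globin in solution, rose by 2.63 ± 0.34 (6.19-fold, adjusted p = 0.000994), with 10.69, 10.27 and 10.03 in vehicle, 7.58, 7.99 and 7.53 in model and 6.45, 6.76 and 8.21 in sham samples. Sham 5 lay above all model arrays for Ahsp, and all vehicle arrays above both groups. The alpha-globin probe listed as Hba-a3 (probe 10741765), which near-identical alpha-globin copies may share, was at 12.46, 12.29 and 12.18 in vehicle, 11.01, 10.77 and 10.79 in model and 9.88, 9.90 and 10.33 in sham samples (1.45 ± 0.14, adjusted p = 0.000325). The beta-globin probes lay near the top of the scale, whose highest value is 13.49. Hbb was at 13.17, 13.11 and 13.12 in vehicle, 12.84, 12.79 and 12.94 in model and 12.39, 12.36 and 12.51 in sham samples, and Hbb-b1 differed by 0.49 ± 0.11. The 3 groups did not overlap for Hbb, but its difference of 0.28 ± 0.10 was not called (adjusted p = 0.33), nor was that of Hbb-b1 (adjusted p = 0.055). The embryonic and fetal-type globin genes Hbe1, Hbe2 and Hbg1 differed by 0.43, 0.22 and 0.25, none called.

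Genes of the red cell membrane and blood groups had the highest share of rises, 9 of 15, with a median of 1.48. Rhd, which carries the Rh antigen, was at 10.61, 10.42 and 9.39 in vehicle against 7.67, 8.03 and 7.88 in model samples (2.28 ± 0.25, 4.86-fold, adjusted p = 0.000525). Aqp1, the red cell water channel, rose by 2.11 ± 0.30. The skeleton that shapes the red cell rose at several joints: Epb42, protein 4.2, by 2.02 ± 0.29, Ank1, ankyrin 1, by 1.98 ± 0.28, Add2, beta-adducin, by 1.90 ± 0.23, Sptb, beta-spectrin, by 1.87 ± 0.24, and Tmod1, tropomodulin 1, by 1.69 ± 0.25. Slc4a1, the band 3 anion exchanger that these proteins anchor (probe 10747813), was at 11.41, 11.18 and 10.57 in vehicle, 9.31, 9.67 and 9.73 in model and 8.72, 8.40 and 9.31 in sham samples (1.48 ± 0.24, adjusted p = 0.00464). Sham 5 met the lowest model array there. Dmtn, dematin, an actin-bundling protein, rose by 1.41 ± 0.24 (adjusted p = 0.00863). Rhag, the partner of the Rh protein, differed by 0.75 ± 0.28 and was not called (adjusted p = 0.32). It lay from 8.74 to 9.13 in vehicle and at 8.96, 7.45 and 8.20 in model samples, so that model 1 overlapped the vehicle arrays, and it passed without model 1 (1.13, adjusted p = 0.0413). Gypc, glycophorin C, which other blood cells also express, differed by 0.09 (adjusted p = 0.94).

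Erythroid regulators and red cell enzymes gave 12 rises among 23 genes, with a median of 1.10. Car1, carbonic anhydrase 1, was at 9.29, 8.61 and 7.40 in vehicle, 5.34, 5.67 and 5.48 in model and 5.01, 5.04 and 5.51 in sham samples, a difference of 2.94 ± 0.34 (7.66-fold, adjusted p = 0.000591). The vehicle arrays of Car1 spread over almost 2 log2 units and still lay above all others. Car2, carbonic anhydrase 2, rose by 2.12 ± 0.21 and Bpgm, the red cell enzyme that makes 2,3-bisphosphoglycerate and so tunes oxygen release, by 1.84 ± 0.20. Blvrb, biliverdin reductase B, Prdx2, peroxiredoxin 2, and Cat, catalase, rose by 1.69, 1.57 and 1.19 (adjusted p = 0.00166, 0.0013 and 0.000668). Klf1, the master activator of beta-globin and membrane genes (probe 10810036), read 8.75, 8.28 and 7.43 in vehicle against 6.42, 6.39 and 6.46 in model and 6.23, 6.03 and 6.22 in sham samples (1.73 ± 0.24, adjusted p = 0.00148). Gata1, the lineage factor shared by red cell and platelet precursors, rose by 1.34 ± 0.24 (adjusted p = 0.0113), with 8.84, 8.67 and 8.27 in vehicle, 7.31, 6.96 and 7.50 in model and 7.40, 7.27 and 8.30 in sham samples. Sham 5 passed the lowest vehicle array for Gata1, and the call was lost without model 2, vehicle 2 or vehicle 4. The other lineage factors Tal1, Nfe2 and Gfi1b differed by 0.35, 0.30 and 0.43, and the erythropoietin receptor gene Epor by 0.34, none of them called (adjusted p from 0.56 to 0.70). Tfdp2, an E2F partner that acts in late red cell divisions in the mouse, rose by 2.13 ± 0.24, and Mxi1, a Myc antagonist, by 1.10 ± 0.14. Bnip3l, which marks mitochondria for removal as mouse reticulocytes mature, rose by 0.95 ± 0.16 (adjusted p = 0.0086). It too was lost without model 1, vehicle 2 or vehicle 4.

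**Figure D3:**
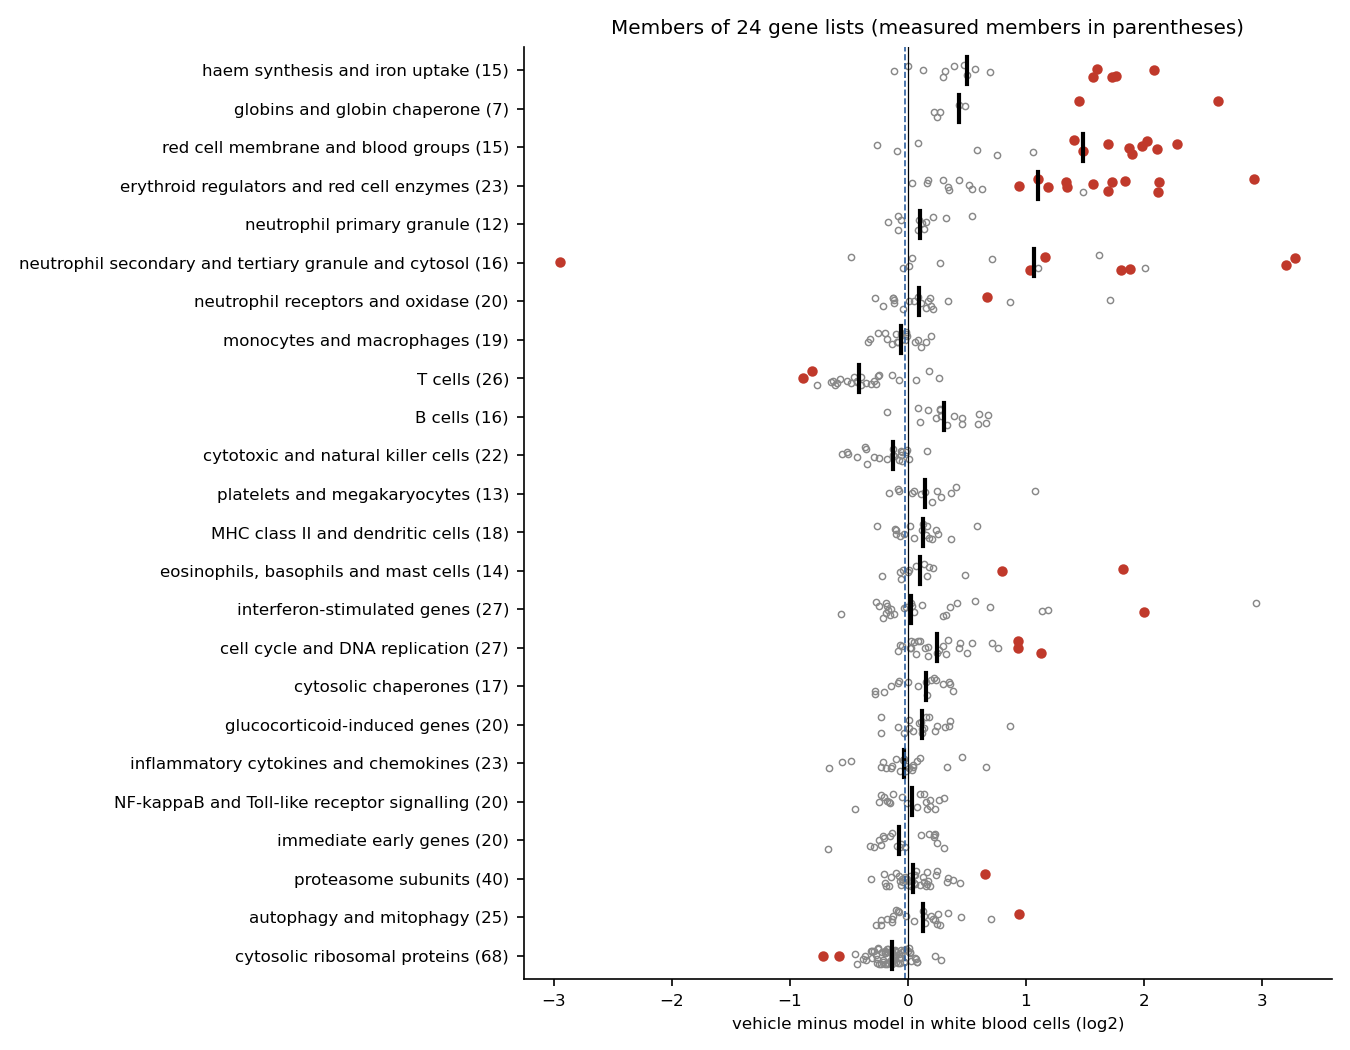
Difference of every measured member of the 24 gene lists, vehicle minus model in white blood cells (log2). Filled red points are called genes, open points are not, the black bar is the list median and the dashed line the median of all genes, -0.02; called rises gather in the 4 erythroid lists and in the secondary granule list, and the T cell list lies mostly below 0.

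Of the 12 largest rises, 3 stand in no list. Hemgn, a nuclear protein of blood-forming cells, was at 10.55, 10.21 and 9.33 in vehicle, 7.61, 7.80 and 7.75 in model and 7.11, 7.06 and 7.33 in sham samples (2.31 ± 0.23, adjusted p = 0.000325). Cd52, a small surface glycoprotein best known from lymphocytes, was at 9.83, 9.36 and 8.68 in vehicle, 7.28, 6.95 and 6.82 in model and 6.29, 6.37 and 6.38 in sham samples (2.27 ± 0.22, adjusted p = 0.000325). The groups of Cd52 formed 3 steps without overlap, while lymphocyte markers proper did not rise. Cdr2, first described as an antigen of cerebellar autoimmune disease, rose by 2.08 ± 0.25 (adjusted p = 0.000674).

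T cell genes leaned the other way. Of 26 measured, 2 fell and 0 rose, against 0.296% and 1.26% of all genes. A negative difference was found for 23, against 8042 of all 14506 genes, and the median was -0.41 against -0.02 over all genes. At an unadjusted p under 0.05 (limma) 13 lay below 0, while 1576 of all genes passed in either direction. Cd40lg, the CD40 ligand of helper T cells (probe 10935605), was at 7.56, 7.03 and 7.71 in vehicle, 8.30, 8.34 and 8.32 in model and 8.14, 8.15 and 7.84 in sham samples (-0.89 ± 0.16, adjusted p = 0.0118). Tcf7, the transcription factor TCF-1 of naive and memory T cells (probe 10742555), was at 9.56, 9.02 and 9.62 in vehicle, 10.33, 10.09 and 10.22 in model and 9.84, 10.31 and 9.81 in sham samples (-0.81 ± 0.17, adjusted p = 0.0321). The vehicle arrays of both genes lay below all model and all sham arrays, vehicle 4 lowest. The Tcf7 call was lost without vehicle 2, vehicle 4 or any single model array, and after median centring, and that of Cd40lg without model 1. Both calls were also lost with all 27 arrays in the fit and with replicate number as a block. The receptor chain gene Cd3e differed by -0.65 ± 0.20 and Cd27, a costimulatory receptor, by -0.77 ± 0.19, neither called (adjusted p = 0.18 and 0.080). Lck, the kinase of the T cell receptor, differed by -0.24 ± 0.15 (adjusted p = 0.66). Mean T cell list levels were 8.26, 7.88 and 8.40 in vehicle, 8.61, 8.41 and 8.67 in model and 8.20, 8.73 and 8.35 in sham samples, so the vehicle arrays lay just below the model arrays but overlapped sham. Beside this, the mean of the 60 erythroid genes was higher in the same vehicle arrays, as given above, and the part of either in the other was not tested.

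Ceacam1 had the only fall of 2-fold or more. It encodes an adhesion molecule of the carcinoembryonic antigen family on granulocytes, lymphocytes and epithelia (probe 10719847), and was at 6.75, 6.50 and 7.19 in vehicle, 9.59, 9.85 and 9.83 in model and 8.75, 7.09 and 10.74 in sham samples. The difference was -2.94 ± 0.60 (7.69-fold lower, adjusted p = 0.0252). The sham arrays alone spread over more than 3 log2 units, and sham 4 lay among the vehicle arrays. The call was lost without sham 3 or any single vehicle or model array, and after median centring or quantile normalization, with the difference between -3.13 and -2.79 throughout.

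All other falls were under 2-fold. Slc25a23, a mitochondrial ATP-Mg/phosphate carrier, was at 5.82, 6.01 and 5.90 in vehicle, 7.01, 6.74 and 6.78 in model samples and averaged 6.87 in sham samples, and fell by 0.93 (SE 0.12, adjusted p = 0.00095). Here the model and sham arrays lay together. Tmlhe, the first enzyme of carnitine synthesis, read 5.39, 5.20 and 5.75 in vehicle, 6.35, 6.25 and 6.42 in model and 5.75, 5.60 and 6.05 in sham samples (-0.89 ± 0.15, adjusted p = 0.0085). In this case the model arrays were the ones that stood above the rest, and the call was lost without vehicle 4. Axin2, a target and brake of Wnt signalling, differed by -0.79 ± 0.13, Bicra, a subunit of a BAF chromatin remodelling complex, by -0.80 ± 0.13, and Pom121, a nuclear pore protein, by -0.73 ± 0.14 (adjusted p = 0.00566, 0.00431 and 0.0165). The Pom121 call was lost after median centring and without model 1, model 3 or vehicle 4. Klf12, a transcriptional repressor, fell by 0.72 (SE 0.16, adjusted p = 0.0358) and was lost after median centring or quantile normalization and when any 1 vehicle array, model 1 or model 3 was left out. Entrep3, Proser1 and Prrt1 fell by 0.81, 0.73 and 0.73, Entrep3 no longer called without model 1, model 3, vehicle 2 or vehicle 4. Of 68 ribosomal protein genes, 2 fell (0.296% of all genes did), Rps28 by 0.72 and Rpl30 by 0.58. A negative difference was found for 57 of the 68 (median -0.13), against 8042 of all 14506 genes. Copies of ribosomal protein genes are many and near-identical, so these probes may read several of them, and the Rpl30 call was lost without vehicle 2, vehicle 4 or any single model array.

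Markers of other blood cells showed few or no calls. For scale, 1.26% of all 14506 genes rose, 0.296% fell, 6439 differences were positive and 1576 genes had an unadjusted p under 0.05 (limma). Of 19 monocyte and macrophage genes 0 were called (limma; 1 at an unadjusted p under 0.05), with a median of -0.06, and Csf1r, the M-CSF receptor, and Cd14, a co-receptor for endotoxin, differed by -0.08 and 0.16. Among 16 B cell genes 0 were called and 15 were positive, with a median of 0.31 and 6 at an unadjusted p under 0.05. Ms4a1, the B cell antigen CD20, was at 8.81, 8.77 and 8.69 in vehicle and 8.17, 8.80 and 7.49 in model samples, so model 2 matched the vehicle arrays (0.60 ± 0.27, adjusted p = 0.43). Among 22 cytotoxic and natural killer cell genes 0 were called (1 at an unadjusted p under 0.05), and the granule genes Nkg7 and Prf1 differed by -0.13 and -0.08. The 13 platelet genes had a median of 0.14 with 0 called and 2 at an unadjusted p under 0.05. The vehicle and model arrays did not overlap for 8 of the 13 (61.5%, against 18.9% of all genes), and 10 of the 13 differences were positive. Selp, P-selectin, which activated platelets bring to their surface, had the largest of them at 1.08 (adjusted p = 0.11). Pf4, platelet factor 4, was at 12.54, 12.56 and 12.60 in vehicle, 12.63, 12.61 and 12.69 in model and 12.58, 12.70 and 12.67 in sham samples, a difference of -0.08 ± 0.10. Like the beta-globin probes, Pf4 lies near the top of the scale. MHC class II and dendritic cell genes gave 0 of 18 called, and 0 at an unadjusted p under 0.05. In the eosinophil, basophil and mast cell list 2 of 14 rose: Alox15, a lipoxygenase also made in reticulocytes (first described in the rabbit), by 1.82 ± 0.31 (adjusted p = 0.00768), and Prg2, the eosinophil major basic protein, by 0.80 ± 0.15 (adjusted p = 0.0165). Alox15 was not called without vehicle 2, nor Prg2 without vehicle 2, model 1 or model 3. Alox15 was at 11.83, 11.34 and 11.15 in vehicle, 8.87, 10.15 and 9.83 in model and 8.80, 8.25 and 9.31 in sham samples, while the eosinophil peroxidase gene Epx differed by 0.21 (adjusted p = 0.73).

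Process lists gave few calls. Over all genes 1.26% rose and 6439 of 14506 differences were positive, and single calls, such as 1 of 40 proteasome genes (2.5%), lie near that share. Of 27 cell cycle and DNA replication genes 3 rose and 24 were positive (median 0.25): Tpx2, a spindle assembly factor, by 1.13 ± 0.16, Tyms, thymidylate synthase, by 0.94 ± 0.17, and Ccnb2, cyclin B2, by 0.93 ± 0.13. The Tyms call was lost without vehicle 2, vehicle 4, model 1 or model 3. Ccnb2 was at 5.52, 5.83 and 5.82 in vehicle, 4.70, 4.81 and 4.86 in model and 4.75, 5.15 and 5.07 in sham samples, so the model and sham arrays lay together. Of 27 interferon-stimulated genes 1 rose, Rsad2, the antiviral enzyme viperin, by 2.00 ± 0.24 (adjusted p = 0.000682). Rsad2 was at 10.99, 10.78 and 9.98 in vehicle, 8.34, 8.87 and 8.54 in model and 7.65, 7.75 and 8.26 in sham samples, while Ifit3, another interferon-induced gene, differed by 0.30 (adjusted p = 0.84) and the list median was 0.02. At an unadjusted p under 0.05 (limma) 7 of the 27 passed, all higher, against 1576 of all 14506 genes. Isg20, Cmpk2 and Ube2l6, in no list and picked after their values were seen, rose by 1.41, 1.68 and 1.37. Of 40 proteasome subunit genes 1 rose (Psmd8, 0.65 ± 0.11, not called without model 1 or model 3, and 0.41 as the mean of its probes), and of 25 autophagy genes 1 (Bnip3l, counted above). Inflammatory cytokines and chemokines (23 genes), NF-kappaB and Toll-like receptor signalling (20), immediate early genes (20), glucocorticoid-induced genes (20) and cytosolic chaperones (17) gave 0 calls each, with medians of -0.03, 0.04, -0.08, 0.12 and 0.16. At an unadjusted p under 0.05 these lists held 5, 1, 1, 0 and 0 genes.

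Against sham, more genes passed the test in vehicle-labelled than in model-labelled samples. There, 291 genes were called in vehicle samples (2.01%, 229 higher and 62 lower), a split of 251 and 17 after median centring, and 0 in model samples (0%, smallest adjusted p = 0.085), where 880 genes had an unadjusted p under 0.05. Without vehicle 4 the 291 became 162, and without model 2 or model 3 the 0 became 2 or 3. These comparisons share arrays with the one between vehicle and model, so their values are set side by side. Alas2 was 2.66 above sham in vehicle and 1.09 above in model samples (adjusted p = 1.02e-05 and 0.0906), Hba-a3 2.27 and 0.82 above, and Bpgm 2.83 and 0.99 above. Ngp was 3.64 above sham in vehicle and 0.36 above in model samples, and Tfrc 1.68 above and -0.05 from it. Every model array lay above every sham array for Alas2, Hba-a3 and Bpgm, while the model arrays of Tfrc lay on both sides of the sham arrays. For the 17 chaperone genes the groups stood differently: their median was 0.76 above sham in vehicle and 0.64 above in model samples, and Hsph1, an Hsp110 chaperone, was at 8.26, 8.71 and 8.48 in vehicle, 7.62, 7.52 and 9.16 in model and 6.23, 6.20 and 6.29 in sham samples. Without model 3, the highest array of all, Hsph1 itself differed between vehicle and model by 0.91 (adjusted p = 0.00781).

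**Figure D4:**
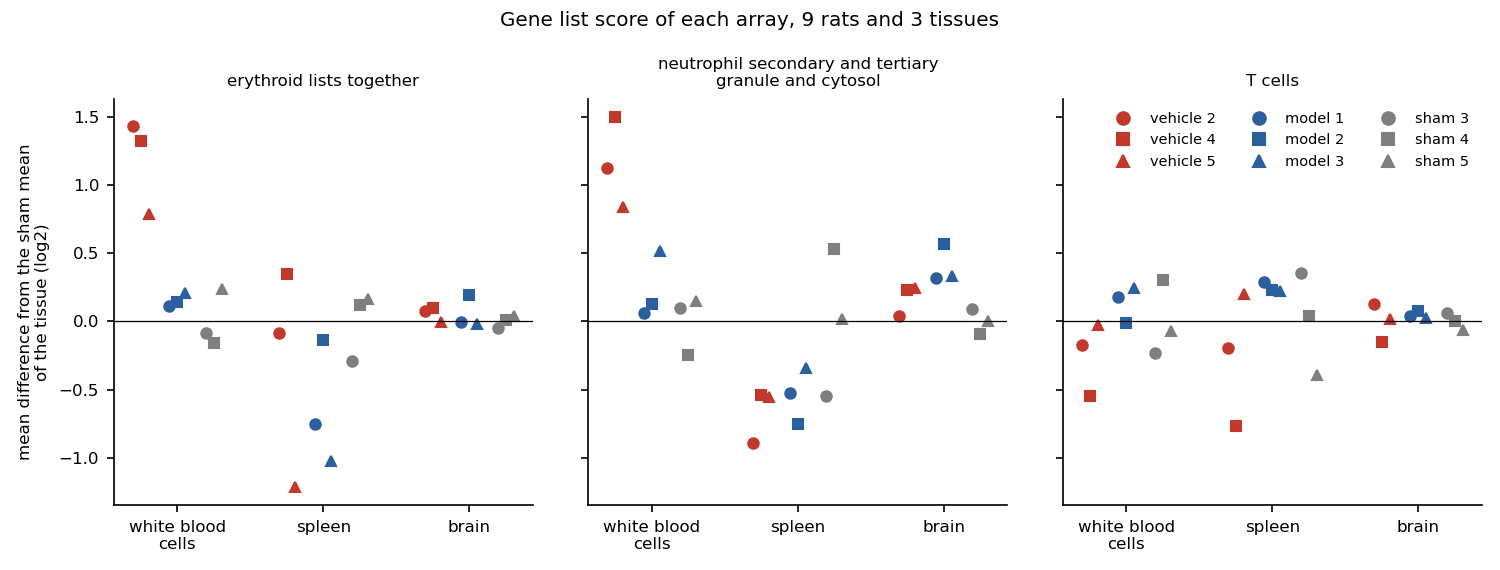
Mean of 3 gene groups on each array, as the log2 difference from the sham mean of the same tissue, for white blood cells, spleen and brain; colours are groups (vehicle red, model blue, sham grey) and marker shapes tell the rats of a group apart. The vehicle white blood cell arrays lie at 1.44, 1.32 and 0.79 for the 60 erythroid genes, against 0.11 to 0.21 in model arrays, while in spleen the groups mix.

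The spleen and brain of the same rats were measured too, and the rat number in the titles links them. In spleen the same comparison called 0 genes (0%, limma; 1872 at an unadjusted p under 0.05), and in brain 8 (0.0551%), none of them called in white blood cells. Of the 183 genes that rose in white blood cells, 155 were higher and of the 43 that fell 41 were lower in vehicle than in model spleens, against 46.4% of all genes higher there. In brain 115 of the 183 were higher and 32 of the 43 lower, against 48.1% of all genes higher. The erythroid mean in spleen, relative to sham, was -0.08, 0.35 and -1.21 in vehicle rats 2, 4 and 5, and -0.76, -0.14 and -1.03 in model rats 1, 2 and 3. Vehicle 5 was the lowest of all spleens and also the lowest of the 3 vehicle blood samples. By list, 54 of 60 erythroid genes were higher in vehicle than in model spleens (median 0.31), and 25 of 27 cell cycle genes (median 0.37). The T cell genes had a spleen median of -0.52, with 0 of 26 higher, and the secondary granule list one of -0.18.

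A test of the difference itself, vehicle minus model in white blood cells minus the same in spleen, called 4 genes (0.0276%; 983 at an unadjusted p under 0.05). With only these 2 tissues in the fit and the rat as a block it called 22. Of those, 18 were called in white blood cells and 3 were among the 4. With only the 2 tissues and no block it called 1. Lcn2 differed between the tissues by 3.67 ± 0.56 (adjusted p = 0.015, and 0.0226 with the rat as a block), since vehicle and model spleens differed by -0.47. Pglyrp1, Creg1 and Il7 differed by 2.37, 2.03 and 1.56 (adjusted p = 0.0471 each), and with the rat as a block by the same amounts with adjusted p = 0.0478, 0.0284 and 0.0711. Creg1, a lysosomal glycoprotein, was at 10.30, 10.10 and 9.30 in vehicle and 7.75, 8.10 and 7.77 in model white blood cells, with -0.01 between the spleens. Ngp differed by 3.37 ± 0.72 between the tissues and was not called (adjusted p = 0.11, and 0.072 with the block). It is well expressed in spleen, with group means of 7.01 in vehicle, 7.10 in model and 8.58 in sham spleens. Of the 60 erythroid genes 0 were called in this test, and 2 with the rat as a block, Bpgm (1.55) and Cat (1.32), with adjusted p = 0.0451 and 0.0315. The count of 4 became 0 without model 1, 1 without vehicle 4, 2 without vehicle 2, model 2 or model 3, and 14 without vehicle 5. Il7, a cytokine that lymphocytes depend on, was itself called in white blood cells (1.05 ± 0.22, adjusted p = 0.0317) but not after median centring, nor when sham 3, vehicle 2, vehicle 4 or any 1 model array was left out.

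Against brain, 56 genes were called (0.386%, 44 higher and 12 lower, with 40 and 23 after median centring). With only these 2 tissues in the fit, 100 were called with the rat as a block and 101 without it. Of the 56, 16 were called in white blood cells, and of the 100, 62. Lcn2 (3.27, adjusted p = 0.0069) and Ngp (3.73, adjusted p = 0.0195) were among the 56, as was Ell2, a transcription elongation factor that rose by 1.53 ± 0.16 in white blood cells (2.04, adjusted p = 0.00111). Of the 60 erythroid genes, 1 was called, the water channel gene Aqp1 (2.83, adjusted p = 0.0457), and 19 with the rat as a block. Some called genes hardly differed in white blood cells: the activity-induced genes Egr2 and Npas4 differed by -0.05 and -0.03 between vehicle and model white blood cells, against -2.59 and -2.75 between the brains. Both were dim in white blood cells, with means of 4.02 and 4.00 in vehicle samples. The count of 56 became 24 without vehicle 4, 29 to 31 without vehicle 2 or any 1 model array, and 90 without vehicle 5.

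**Figure D5:**
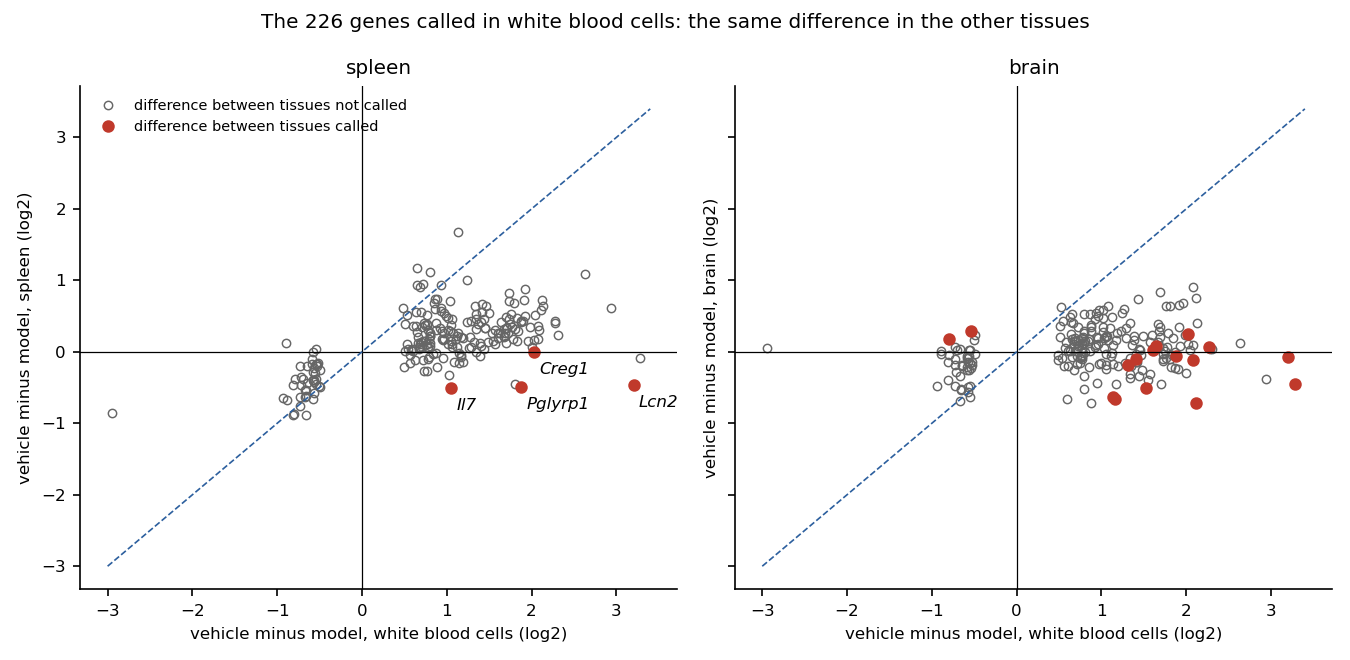
The 226 genes called in white blood cells, each by its vehicle minus model difference there (log2, horizontal axis) and in spleen (left panel) or brain (right panel, vertical axes), with the dashed line where both are equal. Filled points are genes whose difference between the tissues was called, 4 for spleen and 16 for brain; most rises lie above 0 in spleen but below the dashed line.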

How the data were processed

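White blood cells, spleen and brain of 9 rats were measured on 27 Affymetrix rat Gene arrays. The authors made the deposited log2 values with RMA (background correction, normalization across arrays, 1 value a probe set), per the submitters' processing notes, with no version given. Their scale is not stated, and log2 was read from their range of 1.53 to 13.49. Which arrays were normalized together is not given in the sources used here. Of 27596 probes, 15310 had exactly 1 gene symbol in GEO's platform annotation, 323 had several and 11963 had none. Where a gene had several probes, the one brightest on average across the 27 arrays stood for it, which gave 14506 genes.

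The white blood cell comparisons came from limma 3.58.1 (R 4.3.3) over the 9 white blood cell arrays, with a mean per group, empirical Bayes variances and 6 residual degrees of freedom. Tests were 2-sided, and p-values were Benjamini-Hochberg adjusted over all 14506 genes. Differences between tissues were tested in a fit of all 27 arrays, 1 mean for each group in each tissue. The procedure was run on simulated data with independent noise for each gene, so deviations that many genes share on an array were not covered. Rat numbers in the titles link the tissues of an animal. Deviations of blood and spleen of a rat from their group means correlated with r from 0.032 to 0.518 (over 0.1 in 8 of 9 rats). Those of blood and brain correlated with r from -0.058 to 0.156. Values with the rat as a block are therefore given too, from fits that held only the 2 tissues compared.

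Of 599 distinct list symbols, 514 were measured. Some marker genes are not reported here. Named genes are the 12 largest rises and falls among called genes without overlap, up to 5 called genes per list, a fixed core of marker genes and the 5 leading genes each way of the tissue tests, and other list members are given as examples. The comparison, the members and the lists were chosen with earlier results of these data known. The alternatives tried concerned the arrays in the fit, normalization, dim genes, probe choice, variance model, array weights, blocks, call rule and single arrays.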

Additional observations from a re-analysis of the deposited data

Results flagged for a closer look

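In 14 genes the difference between vehicle and model white blood cells was itself different from that in another tissue of the same rats by the limma test over 27 arrays. All values are log2 differences, vehicle minus model, in white blood cells minus the same in the other tissue. Against spleen they were Lcn2 at 3.67, Pglyrp1 at 2.37, Creg1 at 2.03 and Il7 at 1.56, where white blood cells differed by 3.21, 1.88, 2.03 and 1.05 and spleens by -0.47, -0.49, -0.01 and -0.51. Il7 lost its call with the rat as a block (adjusted p = 0.0711).

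Against brain, the 5 leading genes in each direction were taken. Ell2, at 2.04, combined a rise of 1.53 in white blood cells with a difference of -0.51 between the brains. Egr2 at 2.54, Npas4 at 2.72, Inhba at 2.57 and Gprc5a at 1.66 came with white blood cell differences of -0.05, -0.03, 0.15 and 0.02, and with brain differences of -2.59, -2.75, -2.42 and -1.64. The first 3 of these averaged 4.37, 7.63 and 6.10 in vehicle brains, 6.96, 10.38 and 8.52 in model brains and 4.06, 5.15 and 5.39 in sham brains. In the other direction, Gpd1 stood at -1.88, Nefh at -1.57, Dnajc28 at -0.97, Cth at -0.96 and Phf12 at -0.92, with white blood cell differences of 0.03, -0.15, 0.01, -0.28 and -0.52 and brain differences of 1.91, 1.42, 0.98, 0.68 and 0.41. Nefh and Cth were dim in white blood cells too, with means of 3.95 and 3.37 in vehicle and 4.10 and 3.64 in model samples.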

How the results depend on the processing

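No called named gene changed direction under the 21 alternatives. The medians of the erythroid, secondary granule and T cell lists kept their sign, while those of the interferon, cytokine, NF-kappaB, monocyte, natural killer, MHC class II, chaperone, proteasome and neutrophil receptor lists crossed 0 in at least 1 (chaperones to -0.0033 without model 2, MHC class II to -0.0267 and natural killer to 0.0275 without model 3). The 226 called genes became 555 with array weights, 109 with a fold of at least 2 required, and 7 with replicate number as a block. Of these 7, 5 were among the 226. That block adds terms to a fit of the same 9 arrays, so fewer residual degrees of freedom remain than the 6 of the main fit. Model 1 shares its number with no other blood sample. Deviations of same-numbered blood samples of different groups correlated with r from -0.279 to 0.016. Whether samples of the same number shared a batch or day is not given and was not tested. Leaving out 1 array gave 108 (model 1) to 273 (sham 5 or vehicle 5), and the cause was not tested. Other settings gave 154 to 333. Under the block 1 erythroid gene was called, and 25 to 33 when 1 array was left out; the T cell falls ranged from 0 to 3 over the same omissions. The vehicle minus sham count ranged from 162 to 350 and the model minus sham count from 0 to 3 with 1 array left out. The white blood cells minus spleen count of 4 became 22 with only these tissues in the fit and the rat as a block, and 1 with only these tissues and no block. It ranged from 0 to 14 with 1 array left out. The count of 56 against brain became 100 and 101, and ranged from 24 to 90. Of 56 called named genes, 38 stayed called whichever array was left out and 3 in all alternatives but the fold limit. Of the uncalled ones, 6 passed in some alternative. With all 27 arrays in the fit, the calls of Tfrc, Olfm4, Camp, Prg2, Tpx2, Ccnb2, Tyms, Rpl30, Cd40lg, Tcf7, Entrep3, Proser1 and Klf12 were lost. Signal over background was not given, so the limit that dim probes set is unknown.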

Other observations

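Several called genes outside the lists are known from maturing red cells, and they were picked after their values were seen. Lgals5, a galectin of rat reticulocytes, was at 12.07, 12.01 and 11.33 in vehicle and 10.37, 9.93 and 9.78 in model samples. Ncoa4, the receptor that delivers ferritin for breakdown, rose by 1.39, Eif2ak1, the haem-regulated kinase of globin translation, by 1.24, and Slc6a9, a glycine transporter, by 1.77. Among 20 measured genes of iron-sulfur cluster assembly, a list also written after calls were seen, 6 rose and 0 fell, with a median of 0.11. Of all genes 1.26% rose and 0.296% fell, but the members were chosen with calls known, so the counts are no test of the pathway. Glrx5, a mitochondrial glutaredoxin of that pathway, rose by 1.79 and Iscu, its scaffold protein, by 1.01.

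Interferon-induced Ifit1, a member of the interferon list picked here after its values were seen, differed widely among the rats of each group. In white blood cells it read 9.77, 10.11 and 3.13 in vehicle 2, 4 and 5, 3.34, 7.33 and 3.50 in model 1, 2 and 3, and 6.07 and 6.26 in sham 4 and 5 but 3.30 in sham 3. In spleen it read 8.73, 9.80 and 3.87 in vehicle, 3.74, 9.11 and 3.34 in model and 3.79, 9.15 and 9.06 in sham samples. The same rats were thus high or low in both tissues, and the vehicle minus model difference in white blood cells was 2.95 ± 1.54 (limma, adjusted p = 0.55).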
